A study of Mus musculus with 12 samples.

Results

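The genes described here make, break down or sense prostaglandins and endocannabinoids, lipid messengers that neurons produce on demand. The set was Ptgs1, Ptgs2, Ptges, Ptges2, Ptges3, Napepld, Faah, Mgll, Dagla and Cnr1. A gene entered with the probe set that the array annotation assigns to it alone, taking the one with the highest mean over the 12 arrays where there were several. In this way 9 of the 10 genes were measured, out of 19938 genes with such a probe set. Ptgs1, the constitutive cyclooxygenase, has no probe set of its own in the annotation used here and is not analysed here. The set was chosen by measured values of these arrays, since Ptgs2 was higher and Napepld lower in mice with status epilepticus (SE) in an earlier look, so the values of these genes in that comparison are a description and carry no test.

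The arrays measured hippocampal RNA of 12 adult mice, given as 7 to 10 weeks old, in 4 groups of 3 mice with 1 array for each mouse. In the study's text tamoxifen began at 7 weeks at the earliest and analysis followed weeks later. The given range may therefore not be the age at which tissue was taken. The mice, of both sexes and of C57/Bl6 background, all carried an inducible Cre recombinase under the Camk2a promoter and had received tamoxifen. Heterozygous littermates have 1 floxed Srf allele and are the control genotype; Srf mutant mice have both alleles floxed and so lose the transcription factor SRF from forebrain glutamatergic neurons, while cells in which this promoter is silent keep it. The groups were heterozygous mice without seizure (het control), heterozygous mice that spent 40 min in SE after 335 or 350 mg/kg pilocarpine (het +SE), Srf mutants without seizure (mut control) and Srf mutants that were given pilocarpine and had seizures but no SE (mut +pilo -SE). The labels mark both pilocarpine groups as having had a seizure; that these mutants did not reach SE is stated in the study's text, and the time at which their hippocampi were taken is not given in the sources used here, so that time after injection cannot be told apart from the other differences between the pilocarpine groups. Control mice were injected with Ringer solution. Pilocarpine is a muscarinic agonist that drives hippocampal circuits into seizures. The mutants of these arrays did not reach SE, so that loss of SRF and absence of SE cannot be told apart when the pilocarpine groups of both genotypes are set against each other.

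Prostaglandin synthesis starts when phospholipases free arachidonate from membranes. Cyclooxygenases, Ptgs1 and the activity-inducible Ptgs2, turn it into prostaglandin H, and terminal synthases such as Ptges, Ptges2 and Ptges3 turn that into prostaglandin E. On the endocannabinoid side, Napepld releases anandamide and Dagla releases 2-arachidonoylglycerol, Faah and Mgll degrade these lipids, and Cnr1 encodes the CB1 receptor, through which they dampen transmitter release. Both routes meet at arachidonate, because its release from 2-arachidonoylglycerol by Mgll feeds prostaglandin synthesis in brain, and Ptgs2 itself can oxidise endocannabinoids.

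RefSeq promoter windows (GRCm38.p6) were found for 9 of the 10 genes, in 12 windows that run from 250 bases before to 50 bases after an annotated start; Dagla has none in the table. Those of Ptgs2 and Napepld are shown because the results turn on these genes, and a stretch each of Ptges2, Mgll and Cnr1 because they share the E-box letters of Ptgs2. Capitals mark, in Ptgs2, a CRE half-site (CGTCA) that overlaps an E-box (CACGTG), and in the other 3 stretches the E-box. In Ptgs2 the capitals lie at bases 14 to 22, with the annotated start as base 1. Whether transcription in hippocampus begins at the annotated starts was not checked. The Ptgs2 stretch lies at chr1:150099781-150100060 on the plus strand and ends 30 bases after the start; the Napepld stretch lies at chr5:21701623-21701872 on the minus strand and ends at the base before the start. The short stretches lie at chr2:32395801-32395830 for Ptges2, chr6:88724356-88724385 for Mgll and chr4:33924583-33924612 for Cnr1, each on the plus strand.
Ptgs2: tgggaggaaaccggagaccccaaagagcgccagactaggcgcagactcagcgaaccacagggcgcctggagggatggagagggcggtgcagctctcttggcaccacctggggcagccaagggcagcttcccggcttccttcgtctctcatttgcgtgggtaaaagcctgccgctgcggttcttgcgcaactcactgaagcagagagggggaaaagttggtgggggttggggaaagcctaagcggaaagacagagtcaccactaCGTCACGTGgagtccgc
Napepld: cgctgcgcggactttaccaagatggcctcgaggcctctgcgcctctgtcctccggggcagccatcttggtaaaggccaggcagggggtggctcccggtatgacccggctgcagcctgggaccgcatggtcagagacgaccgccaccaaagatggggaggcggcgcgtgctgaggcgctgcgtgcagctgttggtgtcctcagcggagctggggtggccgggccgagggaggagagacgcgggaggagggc
Ptges2: ccatttccgcgaCACGTGgtttccaaggcc
Mgll: gggggccgggcaCACGTGgggccccggcgc
Cnr1: aaggctcattaaCACGTGatgggaccacgc

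Both strands of the 300 bases of each window were searched. The E-box letters were found in 4 of the 12 windows, against 7.15% of the 32851 windows of all genes. CGTCA was found in 3 of 12, in Ptgs2, Ptges3 and Mgll, against 20.8%. Mgll and Cnr1 each have more than 1 window, with the E-box in 1 of them, and the CGTCA of Mgll lies in a window without its E-box. An NF-kB motif was found in 1 window, that of Ptges3, against 8.46%. The full CRE (TGACGTCA), the AP-1 letters (TGANTCA), the TATA box (TATAAA) and the CArG box, the motif that SRF binds, were in 0 of the 12 windows, against 1.79%, 7.81%, 13.6% and 1.63% of all windows. The CRE contains the half-site. These are matches of letters in a short window and say nothing on binding.

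Values are the log2 probe set intensities that the authors deposited after robust multiarray averaging (RMA). Medians of the 12 arrays were between 6.78 and 6.86. Srf was 9.53 to 9.60 in het controls and 8.80 to 8.96 in mut controls, a log2 difference of -0.67 (SE 0.052, limma adjusted p = 0.000263); whether its probes lie within the deleted part was not checked. Fos, an immediate early gene of neuronal activity, was 5.34 higher (log2) in het +SE than in het controls and 2.72 higher in mut +pilo -SE than in mut controls. Its level without seizure was 6.79 to 7.36 in mut controls and 6.62 to 6.77 in het controls, 0.36 apart (SE 0.12, limma adjusted p = 0.475). Markers of excitatory hippocampal neurons had a mean of 11.15 to 11.32 on every array. A gene is said to pass the test below where its Benjamini-Hochberg adjusted p, over the 23410 probe sets that name a gene, was under 0.05 in limma; standard errors are from the same fit. Tissue was measured in bulk, so that fewer cells of a type and less RNA per cell cannot be told apart, and 3 arrays in a group limit the precision.

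Ptgs2, the inducible cyclooxygenase, was the gene of the set with the largest difference after pilocarpine in either genotype. It was 10.53, 10.61 and 10.64 in the 3 het controls and 12.99, 13.26 and 13.20 in the 3 het +SE mice. All 3 SE arrays were above all controls, with a log2 difference of 2.56 (SE 0.085) or 5.88-fold, which ranked 26 from the highest of 23410 probe sets. In mutants it was 10.61, 10.71 and 10.39 without seizure and 11.23, 11.24 and 11.10 after pilocarpine without SE. These mutant arrays played no part in choosing the gene. Ptgs2 rose there by 0.62 on the log2 scale (SE 0.085, 95% interval 0.43 to 0.80, limma adjusted p = 0.00299), or 1.53-fold, in 3 of 3 mice without overlap, and ranked 72 from the highest. Over 23 other settings of the analysis this difference was 0.53 to 0.69 with an adjusted p of 0.000894 to 0.0215. Ordered by group mean, het +SE (13.15 ± 0.14, SD, n = 3) was followed by mut +pilo -SE (11.19 ± 0.078), het control (10.59 ± 0.055) and mut control (10.57 ± 0.16). The last 2 groups overlapped and were -0.02 apart (SE 0.085). The difference after pilocarpine in mutants minus that in heterozygous mice was -1.94 (log2, SE 0.12), given as a value since the heterozygous arrays chose the gene.

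**Figure D1:**
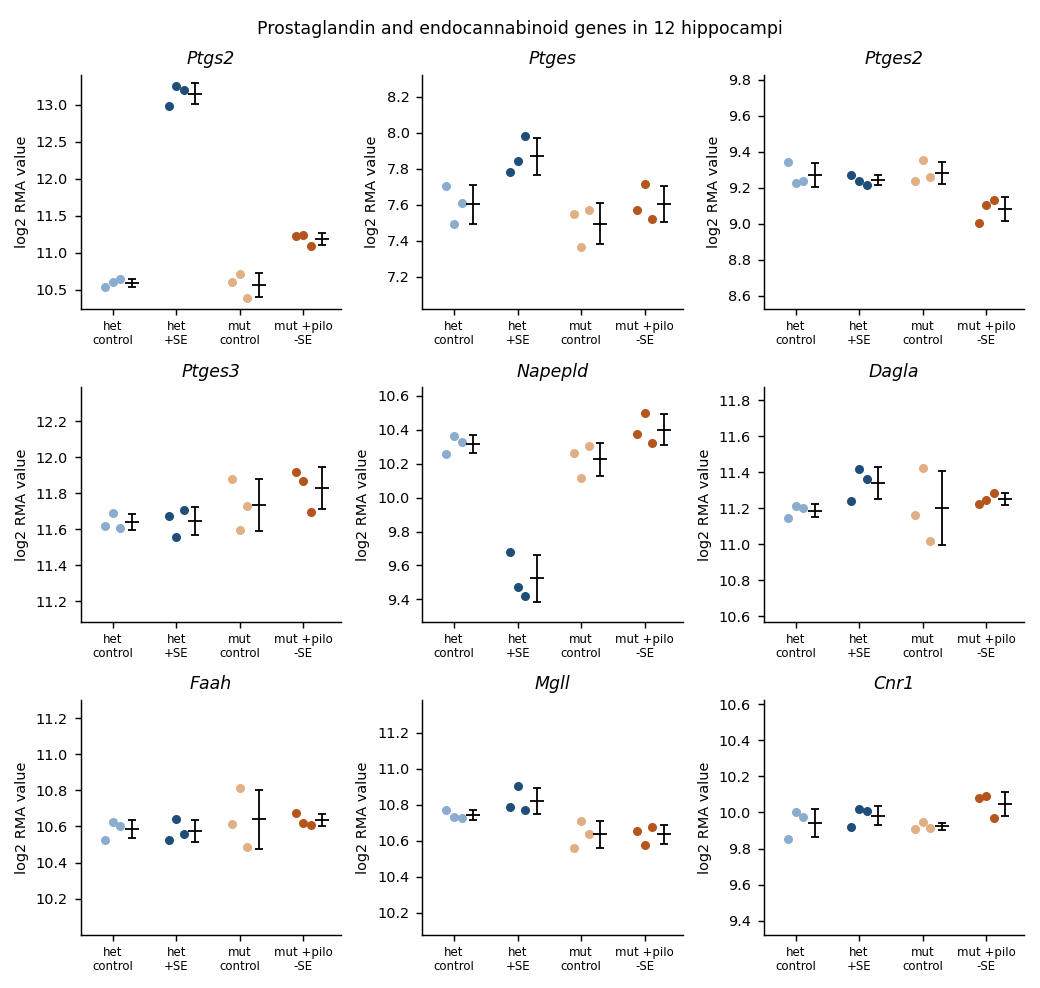
log2 RMA value of each of the 9 genes in the 12 hippocampi, with 1 point for each mouse and the mean ± SD of each group of 3 (bars). The vertical scale differs between genes; Ptgs2 spans 10.39 to 13.26, and the 3 het +SE arrays of Napepld, at 9.42 to 9.68, lie below its 9 other arrays.

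The 3 terminal prostaglandin E synthases had smaller differences. Ptges, the inducible microsomal synthase, was 7.71, 7.49 and 7.61 in het controls and 7.78, 7.84 and 7.98 in het +SE mice. The SE arrays were higher without overlap, by 0.27 (log2, SE 0.078). Over the other settings it was 0.21 to 0.32, and 0.21 without het +SE replicate 3 or het control replicate 2. In mutants Ptges was 7.55, 7.36 and 7.57 without seizure and 7.57, 7.71 and 7.52 after pilocarpine, an overlap with a difference of 0.11 (SE 0.078, limma adjusted p = 0.582). Its difference after pilocarpine in mutants minus that in heterozygous mice was -0.16 (log2, SE 0.11, 95% interval -0.40 to 0.081, adjusted p = 0.551).

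Ptges2, a membrane-associated synthase, was 9.34, 9.23 and 9.24 in het controls and 9.27, 9.23 and 9.22 in het +SE mice, which overlapped (-0.029, SE 0.051). In mutants it was 9.24, 9.35 and 9.26 without seizure and 9.00, 9.10 and 9.13 after pilocarpine. All 3 pilocarpine arrays were below the mut controls, by -0.20 (log2, SE 0.051, 95% interval -0.31 to -0.092), with an adjusted p of 0.0682 in limma that missed the threshold and reached 0.0495 with array weights. The difference between genotypes in this contrast was -0.17 (SE 0.072, adjusted p = 0.254). Ptges3, also known as the HSP90 co-chaperone p23, has 3 probe sets of its own in the annotation. The one used was 0.0058 (SE 0.076) apart between het +SE and het control and 0.092 (SE 0.076, adjusted p = 0.637) between the mutant groups; the other 2 differed by -0.091 and -0.012 in the heterozygous mice and by 0.094 and 0.098 in the mutants. Whether they report near-identical copies of the gene was not checked, so that this member is uncertain.

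Napepld, which releases anandamide and related acylethanolamides, was lower in SE and not in the mutants given pilocarpine. It was 10.26, 10.37 and 10.33 in het controls and 9.68, 9.47 and 9.42 in het +SE mice. All SE arrays were below all controls, with a log2 difference of -0.79 (SE 0.074), 1.73-fold lower, which ranked 33 from the lowest of 23410. In mutants it was 10.26, 10.12 and 10.30 without seizure and 10.38, 10.50 and 10.32 after pilocarpine. Here the pilocarpine arrays were the higher ones, without overlap, by 0.17 (SE 0.074, 95% interval 0.012 to 0.34), but the limma adjusted p of 0.296 missed the threshold. By group mean, mut +pilo -SE (10.40 ± 0.091, SD, n = 3), het control (10.32 ± 0.054) and mut control (10.23 ± 0.098) were neighbours whose arrays overlapped, except between the mutant groups, and het +SE (9.52 ± 0.14) was apart from all 3. The response differed between genotypes by 0.97 (log2, SE 0.11), and mut controls differed from het controls by -0.092 (SE 0.074); both are values without a test, since they use the arrays that chose the gene.

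Dagla, the main neuronal diacylglycerol lipase, was 11.15 to 11.21 in het controls and 11.24 to 11.42 in het +SE mice, 0.15 higher without overlap (log2, SE 0.084). In the mutants the difference was 0.050 (SE 0.084, 95% interval -0.13 to 0.23, adjusted p = 0.848); mut control replicates 2 and 3 were the highest and lowest of all 12 arrays for this gene, at 11.43 and 11.02. The degrading enzymes showed small differences. Faah, the amidase that hydrolyses anandamide, differed by -0.0090 (SE 0.070) in heterozygous mice and by -0.0039 (SE 0.070, 95% interval -0.16 to 0.15, adjusted p = 0.988) in mutants. Mgll, the lipase that hydrolyses 2-arachidonoylglycerol, differed by 0.077 (SE 0.052) and 0.00034 (SE 0.052, 95% interval -0.11 to 0.11, adjusted p = 0.998). Cnr1, the CB1 receptor, was 9.85 to 10.00 in het controls and 9.92 to 10.02 in het +SE mice, which overlapped. In mutants it was 9.91 to 9.95 without seizure and 9.97 to 10.09 after pilocarpine, higher in 3 of 3 mice by 0.12 (SE 0.052, 95% interval 0.011 to 0.24), with an adjusted p of 0.284.

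**Figure D2:**
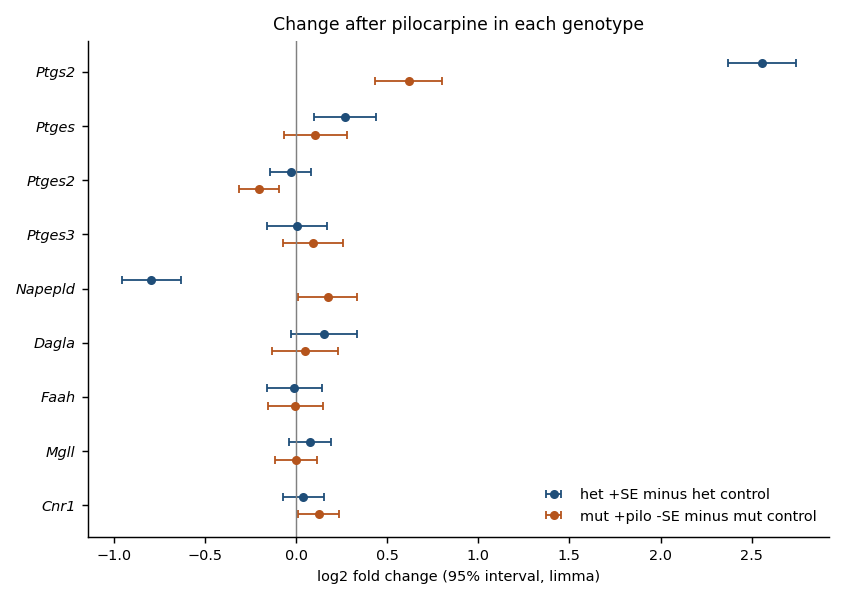
log2 fold change after pilocarpine for each of the 9 genes, het +SE minus het control (blue) and mut +pilo -SE minus mut control (orange), with the 95% interval of the limma fit (bars). The blue intervals describe the precision of the fit and carry no test, since that comparison chose Ptgs2 and Napepld. Ptgs2 is at 2.56 and 0.62; Napepld is at -0.79 and 0.17, on opposite sides of 0; the other genes lie between -0.20 and 0.27.

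Between het +SE and het control 12% of the 23410 probe sets were past the threshold, 5.08% higher and 6.93% lower. These were 1190 and 1623 probe sets, but 1216 and 1128 with each array centred on its median. Since this comparison chose genes of the set, its members are not counted against that threshold. Arrays of these groups did not overlap for Ptgs2, Ptges and Dagla, which were higher, and for Napepld, which was lower. Over all probe sets the arrays were apart for 30.4%, 10.6% higher and 19.8% lower. No count of members is set against these shares, since Ptgs2 and Napepld were chosen by this comparison. Between the mutant groups 1 of 9 genes passed, Ptgs2, against 1.84% of probe sets, 0.871% in its direction, and the arrays were apart for 4 of 9 (Ptgs2, Napepld and Cnr1 higher, Ptges2 lower), against 18.4%, 7.04% higher and 11.4% lower. The median log2 difference over the 9 genes was 0.040 in heterozygous mice and 0.092 in mutants, beside -0.026 and -0.0036 over all probe sets tested.

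The comparison of mut and het controls asks what loss of SRF does without seizure. Of the 7 genes other than Ptgs2 and Napepld, 0 passed the limma test and 0 had an unadjusted p under 0.05; over all probe sets 0.12% passed. Their differences were between -0.11 and 0.096 and their 95% intervals between -0.28 and 0.26 (log2). Mgll was the member whose arrays were apart, against 13.6% of probe sets and 7.46% in its direction, at 10.56 to 10.71 in mut controls and 10.73 to 10.77 in het controls (-0.11, SE 0.052, adjusted p = 0.589). For the difference of the pilocarpine response between genotypes, 0 of these 7 genes passed and 1, Ptges2, had an unadjusted p under 0.05, while 3.59% of all probe sets passed.

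The rest of both pathways was read from 8 lists with 71 of 74 genes measured; the lists were drawn up with earlier results of these data known. Between het +SE and het control 1 rose and 2 fell, and 68 did not pass. That is 4.23% of the 71 genes, below the 12% of all probe sets, and 21.1% had an unadjusted p under 0.05, beside 23.8% of all probe sets. Hpgd, the dehydrogenase that inactivates prostaglandins, was 7.88, 7.77 and 7.73 in het controls and 7.29, 7.52 and 7.33 in SE. It fell by 0.41 on the log2 scale (SE 0.070, limma adjusted p = 0.00191). Tbxa2r, the thromboxane receptor, was 7.01 to 7.24 in controls and 6.72 to 6.89 in SE and fell by 0.35 (SE 0.078, adjusted p = 0.0104). Inpp5d, the lipid phosphatase SHIP1, listed for its part in an alternative route to anandamide and known mainly from blood cells and microglia, was 8.27 to 8.40 in controls and 8.57 to 8.71 in SE and rose by 0.31 (SE 0.054, adjusted p = 0.00241). Each of these 3 passed in 23 of 23 other settings, which refit the same arrays. For Tbxa2r the limma adjusted p there reached 0.0499, at the threshold.

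In the mutants 0 listed genes rose and 1 fell after pilocarpine, which is 1.41% of the 71 genes, near the 1.84% of all probe sets, and 16.9% had an unadjusted p under 0.05 in limma, beside 14.8%. Fabp3, a fatty acid carrier, was 10.27 to 10.45 in mut controls and 9.98 to 10.14 after pilocarpine, a fall of 0.30 (-0.30, SE 0.059, limma adjusted p = 0.0258). It did not pass in 7 of 23 other settings, with an adjusted p of 0.119 where only the mutant groups entered the fit, and of 0.055, 0.0595, 0.103 and 0.0717 without mut control replicate 2, mut control replicate 3, mut +pilo -SE replicate 2 or mut +pilo -SE replicate 3. Between mut and het controls 0 of 71 passed, with 5.63% at an unadjusted p under 0.05 beside 8.73% of all probe sets, and for the difference of the response 0 of 71 passed, with 21.1% beside 15.8%. That difference had an adjusted p of 0.07 for Hpgd, 0.199 for Tbxa2r, 0.177 for Inpp5d and 0.194 for Fabp3, so that none of the 4 was shown to differ between genotypes.

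By list, 0 genes passed the limma test in each of the 4 contrasts among phospholipase A2 family genes (13 measured) and the other prostanoid synthases (6). The same held for lipoxygenase pathway genes (10) and other endocannabinoid receptors and their regulators (8). Each of these lists had 0 to 4 genes at an unadjusted p under 0.05. The 4 prostaglandin E receptors did not pass either, with log2 differences in SE of 0.027 for Ptger1, -0.080 for Ptger2, -0.16 for Ptger3 and 0.12 for Ptger4. Pla2g4a, the cytosolic phospholipase A2 that prefers arachidonate, was lower without overlap in SE by -0.35 (SE 0.12), with an adjusted p of 0.0716. List medians in SE were between -0.13 and -0.0023, beside -0.026 over all probe sets; in mutants they were between -0.061 and 0.035, beside -0.0036.

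**Figure D3:**
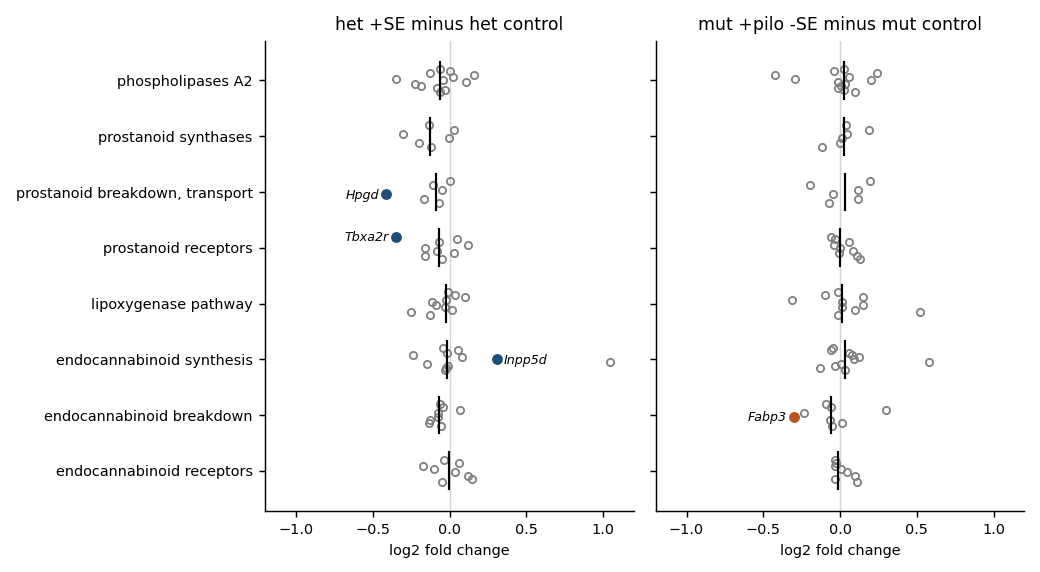
log2 fold change of the 71 other pathway genes by list, in heterozygous mice with SE (left) and in mutants with pilocarpine (right); each point is a gene, black bars are list medians and filled points with names passed the limma test. Hpgd (-0.41), Tbxa2r (-0.35) and Inpp5d (0.31) are filled on the left and Fabp3 (-0.30) on the right; the open point at 1.04 on the left is Gdpd3, named here after its value was seen, with SE 0.66 and an adjusted p of 0.387.

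Cell type markers were read beside these values. In het +SE mice 2 of 6 measured microglia markers fell (Cx3cr1 by 0.19, limma adjusted p = 0.0264, and P2ry12 by 0.23, adjusted p = 0.0270). Over all probe sets 6.93% fell and 5.08% rose past the threshold in this comparison. Of the 6 microglia markers 5 were lower and 1 higher, and their mean was 8.47 to 8.53 against 8.54 to 8.60 in het controls. Tek, 1 of 7 endothelial markers, fell by 0.45 (limma adjusted p = 0.0227). Of these 7, 5 were lower and 2 higher, by up to 0.34, and the list mean was 8.02 to 8.57 against 8.42 to 8.59. Among 8 inhibitory neuron markers Sst rose by 0.31 (limma adjusted p = 0.00101). Of these 8, 5 were higher and 3 lower, down to -0.16, and the list mean was 10.83 to 10.87 against 10.81 to 10.86. Markers of excitatory neurons (0 of 8), astrocytes (0 of 7), oligodendrocytes (0 of 6), choroid plexus (0 of 6) and meninges (0 of 6) did not pass. These lists had 0 to 3 genes at an unadjusted p under 0.05 in limma, beside 23.8% of all probe sets. All 6 markers of meninges were lower in het +SE, with a median log2 difference of -0.32 (-0.56 to -0.13) beside -0.026 over all probe sets, and a list mean of 8.20 to 8.75 against 8.73 to 9.04 in het controls. In mut +pilo -SE mice Opalin, 1 of 6 oligodendrocyte markers, fell by 0.84 (limma adjusted p = 0.0250), while 1.84% of all probe sets passed in either direction. All 6 oligodendrocyte markers were lower, by -0.84 to -0.13 with a median of -0.29. Of these, 5 had an unadjusted p under 0.05 in limma, beside 14.8% of all probe sets. The list mean was 10.43 to 10.94 against 11.03 to 11.09 in mut controls. Between mut and het controls 0 markers passed, beside 0.12% of all probe sets. A list had 0 to 4 genes at an unadjusted p under 0.05 in limma, beside 8.73% of all probe sets. All 8 inhibitory neuron markers were higher in mut controls, by 0.018 to 0.28 with a median of 0.14, and 4 of them had an unadjusted p under 0.05; their list mean was 10.94 to 11.01 against 10.81 to 10.86 in het controls, without overlap. The part of these cell types in the values of Ptgs2, Napepld, Mgll, Hpgd, Tbxa2r, Inpp5d and Fabp3 was not tested.

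The profiles nearest to Ptgs2 and Napepld were taken over the 19938 genes, by the root mean square difference of log2 values after centring each gene on its mean over the 12 arrays. Nearest to Ptgs2 were Tiparp, a mono-ADP-ribosyltransferase (0.151), Adamts1, a secreted metalloprotease (0.167), Egr1, an activity-induced transcription factor (0.176), Cwc25, a splicing factor (0.188), and Kif18a, a kinesin (0.215). Their log2 differences were 2.80, 2.86, 2.24, 2.77 and 2.15 in het +SE, and 0.80, 0.76, 0.69, 0.30 and 0.25 in mut +pilo -SE. Nearest to Napepld were Zbtb6, a zinc finger gene (0.0921), Sstr3, a somatostatin receptor of neuronal cilia (0.105), the zinc finger gene Zfp583 (0.109), Dcp1a, an mRNA decapping factor (0.11), and the zinc finger gene Zfp280b (0.114). They were lower in het +SE by -0.82, -0.81, -0.58, -0.69 and -0.81, and differed by 0.0083, 0.20, 0.19, -0.033 and -0.031 in the mutants. These lists describe likeness over 12 arrays of shared groups and carry no test.

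**Figure D4:**
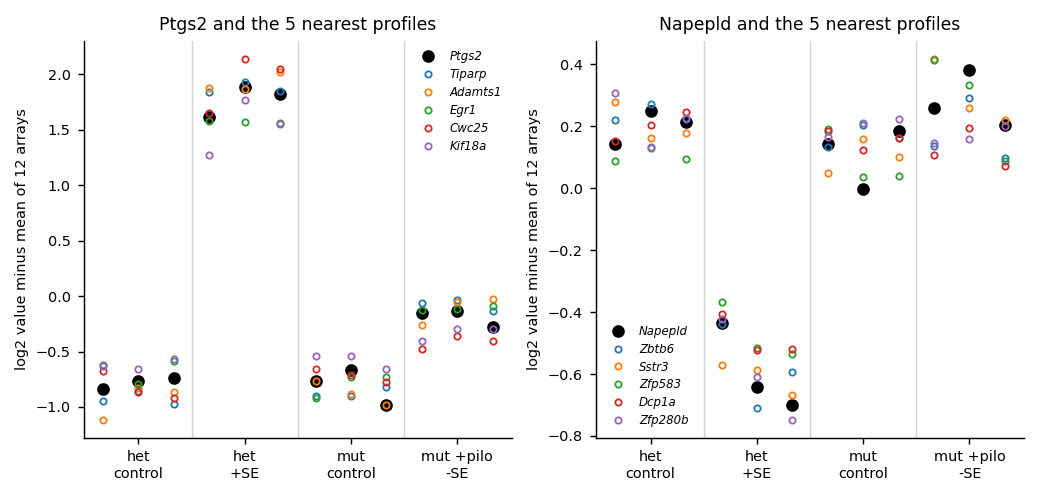
Profiles of Ptgs2 (left) and Napepld (right, filled black) with the 5 genes nearest to each (open), as log2 value minus the gene's mean over the 12 arrays, for each mouse in the 4 groups. Both families stand apart in het +SE, upward with Ptgs2 and downward with Napepld, and the mut +pilo -SE arrays of the Ptgs2 family lie between its controls and the SE arrays.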

How the data were processed

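Hippocampal RNA was hybridised to Affymetrix Mouse Gene 1.0 ST arrays, 1 per mouse. Per the labels, Affymetrix Expression Console was used for RMA, and the deposited values are on a log2 scale; scan order or batch is not given in the sources used here. The platform annotation gives 1 symbol for 21789 of 35556 probe sets, several for 1621 and none for 12146. limma 3.58.1 (R 4.3.3; lmFit, eBayes) was fitted to the log2 values of 12 arrays with 1 mean per group, and p-values were adjusted over 23410 probe sets that name a gene. The members and the gene lists were chosen with earlier results of these data known. All members are named; of each list, up to 3 called genes with the largest change, and the 5 nearest profiles by root mean square difference. Replicates are animals numbered in the labels. The fit was tested on simulated data. Alternatives covered the features tested, prior variance, dim probe sets (25% left out), normalization, arrays in the fit, array weights, a replicate block, Xist as covariate, probe sets of a gene and leaving out each array. Tables were handled with Python 3.11.15, pandas 2.3.3 and scipy 1.17.1. Srf mutants that reached SE were not analysed here.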

Additional observations from a re-analysis of the deposited data

How the results depend on the processing

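Each of 23 alternatives, 12 of which leave out 1 array, was run on every contrast, except that the difference of the response uses all groups and so has no fit on the compared groups alone. Of 911 values of single genes under these settings, 850 kept their direction and side of the threshold, 18 no longer passed, 1 newly passed and 42 changed sign. Ptgs2 in the mutants passed in 23 of 23. The number of probe sets called between the mutant groups (430) was 246 over all probe sets, 161 with only the compared groups and 162 to 448 leaving out 1 array (192 without mut control replicate 2, 176 without mut +pilo -SE replicate 1, 162 without its replicate 2), and 2 members were called with array weights. Between control groups 28 probe sets became 11 over all probe sets, 9 with the compared groups, 12 with Xist and 8 to 47 leaving out 1 array (47 without mut control replicate 3, 8 without het control replicate 2); the split of 9 higher and 19 lower was 5 and 18 after quantile normalization again, 1 and 8 with the compared groups and 24 and 23 without mut control replicate 3. For the difference of the response 840 became 535 to 986 (535 without mut +pilo -SE replicate 1, 553 without het control replicate 3). In het +SE the count (2813) was 1989 to 2938 leaving out 1 array. The causes were not tested.

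Same-numbered arrays of different groups correlated, in deviations from their group means, at -0.312 to 0.323 over 18 pairs. Of the 12 arrays, 3 correlated best with one of their own number. This check showed no pairing by number, but it cannot exclude that same-numbered animals shared a batch, which is not given. With the replicate block 2489 probe sets were called in het +SE, 303 between mutant groups, 15 between control groups and 659 for the difference of the response; Ptgs2 in mutants had an adjusted p of 0.00461.

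Small differences that did not pass changed sign. In het +SE, Ptges3 was -0.000935 after quantile normalization again, -0.044 with Xist and -0.032 as a mean of its probe sets, and Faah was 0.011 after median centring. In mutants Faah was 0.0014 after median centring, 0.0066 after quantile normalization again and 2.8e-05 with array weights. Between control groups Ptges2 was -0.0048 after quantile normalization again, and for the difference of the response Faah was -0.0099 after median centring. Leaving out 1 array gave, in het +SE, -0.050 to 0.0082 for Ptges2, -0.025 to 0.051 for Ptges3, -0.043 to 0.017 for Faah and -0.0039 to 0.071 for Cnr1. In mutants it gave -0.079 to 0.083 for Faah, -0.039 to 0.039 for Mgll and -0.043 to 0.16 for Dagla. Between control groups it gave -0.092 to 0.066 for Ptgs2, -0.022 to 0.050 for Ptges2, -0.033 to 0.13 for Faah, -0.098 to 0.11 for Dagla and -0.064 to 0.0083 for Cnr1. For the difference of the response it gave -0.070 to 0.092 for Faah and -0.20 to 0.0089 for Dagla.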
